A study of Mus musculus with 6 samples.

Results

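Noncoding transcripts that carry small nucleolar RNAs (snoRNAs) in their introns were read out of a table of gene expression from CAD cells: Gas5, Snhg1, Snhg3, Snhg5, Snhg6, Snhg8, Snhg9 and Snhg12. They were chosen by gene symbol, and all 8 of 8 had a row among the 24318 rows of the table. CAD is a mouse catecholaminergic neuronal cell line. Of the 6 libraries, 3 came from cells treated with an siRNA against circGigyf2, a circular RNA spliced from exons of Gigyf2, and 3 from cells treated with a control siRNA (labelled si NC). These groups are called siCircGigyf2 and siNC below, and both consist of unmodified CAD cells. The number of siRNA sequences, the dose and the time after treatment are not given in the sources used here. Total RNA was depleted of ribosomal RNA before paired-end sequencing. No label ties the replicates to separate cultures, and every p-value given here measures only the spread among these libraries, possibly a technical one. Values are FPKM, fragments scaled to transcript length and to the size of the library, and in a bulk lysate fewer expressing cells and less RNA per cell cannot be told apart.

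Small nucleolar RNAs guide chemical modification of ribosomal RNA: box C/D RNAs direct 2'-O-methylation and box H/ACA RNAs direct pseudouridylation. Vertebrate snoRNAs are mostly cut from the introns of host genes, many of which encode ribosomal proteins. The hosts studied here encode no conserved protein. Their introns yield the guide RNAs, and the spliced exons that are left, which are what an expression table largely counts, are often removed by nonsense-mediated decay, as is known for Gas5. Many host genes also begin transcription at a terminal oligopyrimidine (TOP) start, a C followed by a run of pyrimidines, as ribosomal protein genes do. Gas5 takes its name from its isolation among genes that accumulate in growth-arrested fibroblasts.

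By the GENCODE M21 annotation, the 8 host genes contained 30 snoRNA entries on their own strand, with Snord80 in Gas5 and Snora16a in Snhg12 entered 2 times each. Gas5 held 10, Snhg1 held 8, Snhg12 held 5, Snhg3 and Snhg5 held 2 each, and Snhg6, Snhg8 and Snhg9 held 1 each. The start sites are shown because the TOP start is the feature these genes are best known to share. Each window runs 5' to 3' on the transcribed strand, from 10 bases before the RefSeq start to 20 bases after it (GRCm38.p6), and capitals mark the longest run of C and T that begins with C. RefSeq start windows were found for 7 of the 8 hosts, all but Snhg6.
Gas5, chr1:161035156-161035185, plus strand: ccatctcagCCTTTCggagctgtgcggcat
Snhg1, chr19:8723477-8723506, plus strand: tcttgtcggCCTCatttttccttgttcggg
Snhg3, chr4:132353667-132353696, minus strand: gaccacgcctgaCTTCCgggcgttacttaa
Snhg5, chr9:88522878-88522907, minus strand: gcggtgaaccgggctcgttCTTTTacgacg
Snhg8, chr3:123508317-123508346, minus strand: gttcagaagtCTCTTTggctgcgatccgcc
Snhg9, chr17:24719946-24719975, minus strand: aCTTTCCCTCgccgaagccgcgccctacac
Snhg12, chr4:132308668-132308697, plus strand: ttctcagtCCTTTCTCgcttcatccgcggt
Gas5 has an additional annotated start upstream, whose run was 3 bases long. A run of at least 5 pyrimidines beginning with C lay somewhere in 6 of these 8 windows (75.0%), against 35.8% of all 32851 RefSeq start windows of the same length. For protein-coding snoRNA hosts it was 10 of 26 windows (38.5%), near the share of all starts. A C followed by 4 pyrimidines exactly at the annotated start was present for Gas5 and Snhg8 (2 of 8 starts), against 2.51% of all starts and 0 of 26 starts of protein-coding snoRNA hosts. Only the transcribed strand was searched, and annotated starts can be off by some bases. The list of protein-coding hosts holds many ribosomal protein genes, which are known for TOP starts, so 0 of 26 there means that this search can miss them. These shares therefore do not tell whether either kind of host lacks TOP starts or is richer in them.

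Before the hosts, the libraries were checked. Gigyf2 itself was listed at 21.8, 21.1 and 21.3 FPKM in siCircGigyf2 replicates 1 to 3 and at 23.2, 23.1 and 23.2 FPKM in siNC replicates 1 to 3, a difference of -0.11 on the log2(FPKM + 1) scale (limma adjusted p = 0.0287). The siRNA targets the circular RNA, which has no row of its own, so this row does not check the knockdown directly. Column sums ran from 604881 to 624645 FPKM in siCircGigyf2 and from 578627 to 601552 FPKM in siNC. The absolute depth is unknown. Relative to siNC replicate 1, the spacing of low FPKM values gave a depth of 0.839, 0.914 and 0.802 for siCircGigyf2 replicates 1 to 3. For siNC replicates 2 and 3 it gave 0.979 and 0.953. Every siCircGigyf2 library was thus shallower, with a larger column sum, than any siNC library. The part of depth in the host results was not tested. Of 10 catecholaminergic and neuronal markers, all were above 0 in every library, but Th, Dbh and Ddc were low (Th at 2.82 to 4.85 FPKM, Ddc at 0.235 to 0.493 FPKM). The 13 markers of glia, fibroblasts and endothelium summed to 9.25 to 10.8 FPKM with the circGigyf2 siRNA and 8.53 to 9.90 FPKM with the control siRNA, with Aqp4, P2ry12 and Col3a1 listed at 0 throughout and Pecam1 giving most of the sum. Of the markers tested, Tubb3, Hand2 and the fibroblast collagen gene Col1a1 rose (by 0.55, 0.18 and 0.36), and Dbh, Phox2a and Chga fell (by 0.37, 0.20 and 0.12). Of these, the calls of Col1a1, Dbh, Phox2a and Chga were each lost with some single library left out. The part of these markers in the host results was not tested.

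The snoRNA hosts were expressed over a wide range. Snhg6, whose intron carries Snord87, was the most abundant at 336 to 421 FPKM over the 6 libraries. Snhg1 (184 to 256 FPKM), Snhg12 (81.0 to 113 FPKM) and Snhg5 (44.2 to 54.0 FPKM) followed, and none of these 4 ranges overlapped its neighbour. Gas5 (22.2 to 26.0 FPKM), Snhg3 (16.4 to 22.5 FPKM) and Snhg8 (12.5 to 19.7 FPKM) overlapped with their neighbours in the order, although Gas5 exceeded Snhg3, and Snhg3 exceeded Snhg8, in 5 of 6 libraries. Snhg6, Snhg1 and Snhg12 together made up 85.8% of the summed mean FPKM of the 8 hosts. Of the 8, 7 had a value above 0 in every library. Snhg9 was listed at exactly 0 in 5 of 6 libraries.

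With the circGigyf2 siRNA 4 of the 8 hosts were higher and 0 were lower. Snhg1, Snhg5, Snhg8 and Snhg12 rose, by between 0.26 and 0.31 on the log2(FPKM + 1) scale, and Gas5, Snhg3, Snhg6 and Snhg9 did not pass the test. The test was limma across all 11420 genes with a mean of at least 1 FPKM, with Benjamini-Hochberg adjusted p below 0.05. Of all genes tested 38.2% passed, 19.5% as higher and 18.7% as lower, so the 4 of 8 hosts that were higher stand beside 19.5%. The median difference of the 8 hosts was 0.28, or 0.26 without Snhg9, against 0.00035 over all genes tested. The same 4 hosts lay higher in every siCircGigyf2 library than in any siNC library, as did 25.7% of all genes tested. So did 18 of 37 protein-coding snoRNA hosts and 2 of 11 tested noncoding hosts outside the 8.

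**Figure D1:**
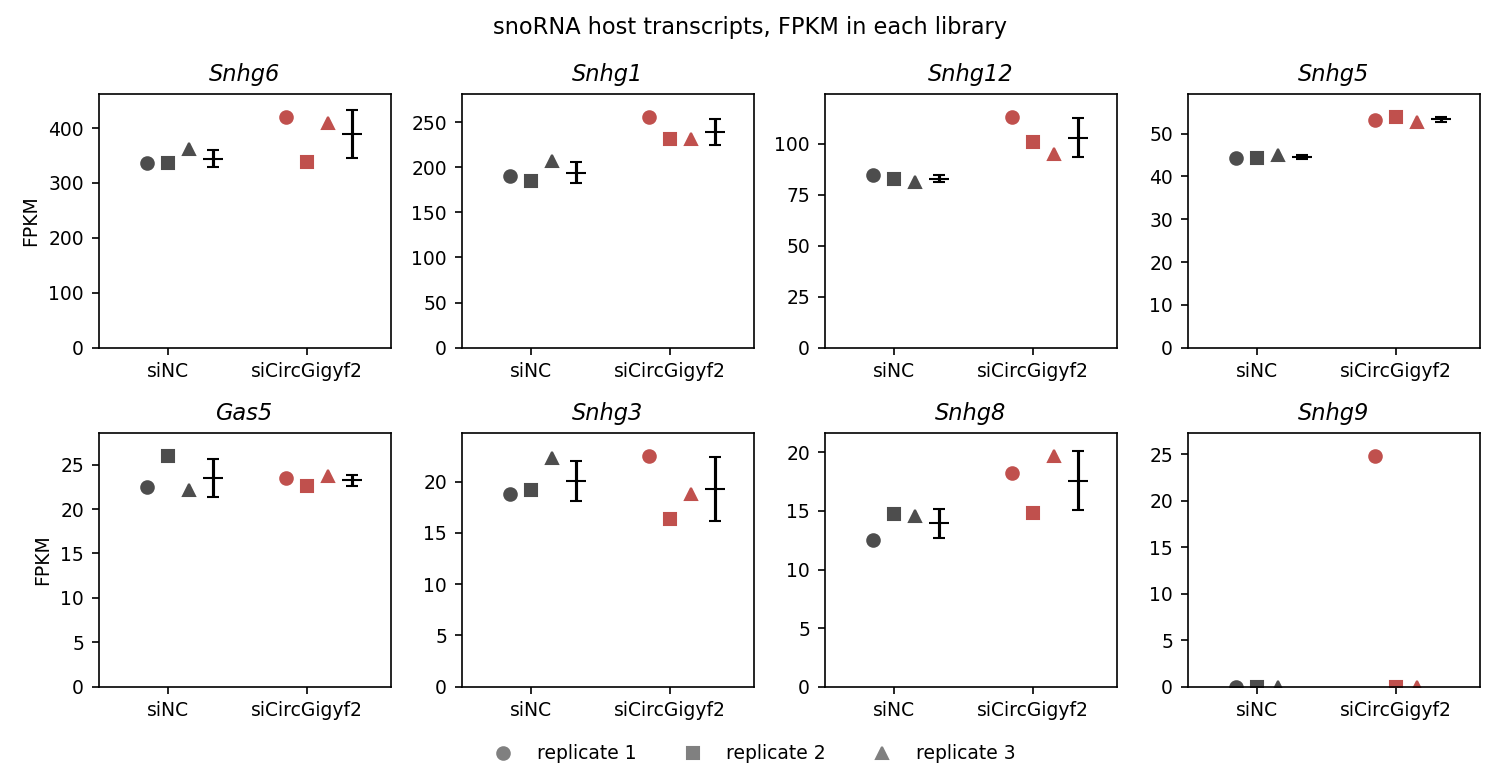
FPKM of each of the 8 snoRNA hosts in each library (y axis from 0, 1 panel per host in order of mean FPKM, marker shape for replicate number), with the mean and SD of each group to the right of its points except for Snhg9. Snhg1, Snhg5, Snhg8 and Snhg12 have all siCircGigyf2 points above all siNC points, and Snhg9 is above 0 in 1 library alone, at 24.9 FPKM.

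Snhg5 had the smallest spread of the 7 hosts with values throughout. It carries the U50 box C/D RNAs, annotated as Snord50a and Snord50b. It was listed at 53.2, 54.0 and 52.8 FPKM in siCircGigyf2 replicates 1 to 3 and at 44.3, 44.2 and 45.0 FPKM in siNC replicates 1 to 3. Every siCircGigyf2 library lay above every siNC library, and the standard deviations were 0.613 and 0.409 FPKM. The rise was 0.26 (SE 0.028, limma adjusted p = 0.000207), a ratio of mean FPKM of 1.2.

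Snhg1, host of a series of box C/D RNAs that includes Snord22, was listed at 256, 231 and 231 FPKM against 190, 184 and 207 FPKM. The groups did not overlap, and siCircGigyf2 replicate 1 stood above the other libraries of its group. The rise was 0.30 (SE 0.053, limma adjusted p = 0.00226). Snhg1 lies head to head with Slc3a2, the heavy chain of several amino acid transporters, with start sites within 1000 bases. Slc3a2, named for its position, was listed at 78.9, 81.7 and 82.6 FPKM against 72.1, 69.0 and 73.9 FPKM and rose by 0.18 (limma adjusted p = 0.00402). How strand was handled is not given in the sources used here, so reads near a shared start cannot be assigned to a strand.

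Snhg12 carries Snora44, Snora61, Snora16a and Snord99. It was listed at 113, 101 and 94.7 FPKM against 84.6, 82.9 and 81.0 FPKM. The siCircGigyf2 libraries were the more spread of the groups, with a coefficient of variation of 9.18% against 2.17%, and none reached down to the siNC range. The rise was 0.31 (SE 0.057, limma adjusted p = 0.00318). Snhg12 was the 1 host of the 8 with the 7 bases GCCTACA in an annotated spliced transcript, searched on the transcribed strand, as were 25.6% of 11351 tested genes. That word was picked in earlier work from falls in these same libraries, and its part in the result for Snhg12 was not tested.

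Snhg8, which carries the H/ACA RNA Snora24, was the least abundant host with a value in all libraries. It was listed at 18.3, 14.8 and 19.7 FPKM against 12.5, 14.7 and 14.6 FPKM. The groups were separated by the narrow gap between siCircGigyf2 replicate 2 and siNC replicate 2. The rise was 0.31 (SE 0.098, limma adjusted p = 0.0342), and of the 4 calls this was the 1 that some alternatives ended. It did not pass when siCircGigyf2 replicate 1 (adjusted p = 0.103), siCircGigyf2 replicate 3 (0.107) or siNC replicate 1 (0.108) was left out, with all rows fitted unfiltered (0.098), or when the mean-variance trend was dropped (0.0621).

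Snhg6 was intermediate. Its values were 421, 339 and 409 FPKM against 336, 336 and 362 FPKM, and siCircGigyf2 replicate 2 lay inside the siNC range while the other siCircGigyf2 libraries lay above it. The difference was 0.17 (SE 0.074, 95% interval 0.0033 to 0.34, limma adjusted p = 0.0991) and did not pass. Without siCircGigyf2 replicate 2 it was 0.27 and passed (adjusted p = 0.00216), whereas it was 0.11 without siCircGigyf2 replicate 1 (adjusted p = 0.292) and 0.11 after quantile normalization (adjusted p = 0.178). The 3 genes whose log2 values followed Snhg6 most closely over the 6 libraries were Mcts1, Cox6c and Cfl1, with Pearson r of 0.990, 0.990 and 0.987, given as a description because library differences and group differences both enter it.

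Gas5 and Snhg3 showed no difference past their spread. Gas5 was listed at 23.5, 22.6 and 23.7 FPKM against 22.4, 26.0 and 22.2 FPKM, with siNC replicate 2 the highest of all. Its difference was -0.01 (SE 0.059, 95% interval -0.15 to 0.12, limma adjusted p = 0.876), and the sign changed without siNC replicate 2 (0.058). Gas5 overlaps Zbtb37 on the opposite strand, and reads there cannot be assigned to a strand either. Zbtb37, named for its position, averaged 7.13 against 8.02 FPKM, lower in every siCircGigyf2 library, and did not pass (-0.15, limma adjusted p = 0.0617). Snhg3, host of the U17 RNAs Snora73a and Snora73b, was listed at 22.5, 16.4 and 18.8 FPKM against 18.8, 19.2 and 22.3 FPKM, and the groups overlapped, with siCircGigyf2 replicate 2 below every siNC library. Its difference was -0.07 (SE 0.104, 95% interval -0.30 to 0.17, limma adjusted p = 0.649), with the sign changed without siNC replicate 3 (0.0087) or siCircGigyf2 replicate 2 (0.039). Snhg3 overlaps Rcc1 on the same strand. Rcc1, the exchange factor of the GTPase Ran, named for its position, was listed at 4.73, 5.21 and 5.30 FPKM against 7.58, 7.41 and 7.49 FPKM and fell by 0.48 (limma adjusted p = 0.000248), so the overlapping rows did not move alike. Neither interval excludes a change of 0.1 in either direction.

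**Figure D2:**
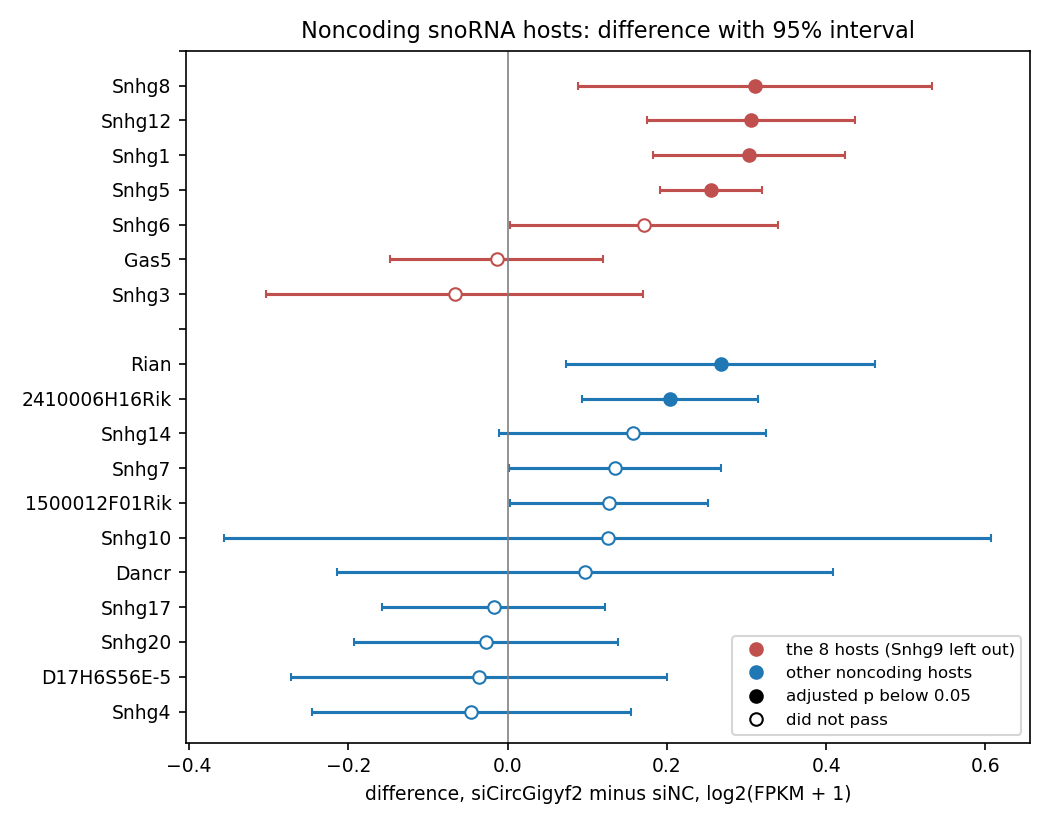
Difference between siCircGigyf2 and siNC on the log2(FPKM + 1) scale (x axis) with its 95% interval for 7 of the 8 hosts (red, Snhg9 left out because it is listed at 0 in 5 libraries) and for 11 other noncoding snoRNA hosts (blue); filled points passed the adjusted p of 0.05. Snhg8, Snhg12, Snhg1 and Snhg5 lie between 0.26 and 0.31, and Gas5 and Snhg3 lie at -0.01 and -0.07.

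The libraries were not equally far from their group mean for all hosts. siCircGigyf2 replicate 2 was the lowest library of its group for 5 of the 7 hosts with values throughout, and siCircGigyf2 replicate 1 for 0 of 7. By the longest annotated spliced transcript of each host, Snhg3, Snhg8 and Snhg6 were the shortest of these 7 (581, 776 and 816 bases), and Snhg5 had 1221 bases. On the log2(FPKM + 1) scale siCircGigyf2 replicate 2 lay 0.21, 0.23 and 0.19 below the group mean for Snhg3, Snhg8 and Snhg6. It lay 0.02 above the group mean for Snhg5. Over the 307 tested genes of 300 to below 800 bases the median deviation of that library was -0.06, against -0.0023 over the 4015 genes of 3000 to below 5000 bases. The part of transcript length in the host results was not tested beyond a fit that removed a smooth length trend from each library. In that fit, chosen after seeing the data, the same 4 hosts passed (Snhg8 adjusted p = 0.0286), and without it the median difference between the groups over those 307 genes was 0.02.

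**Figure D3:**
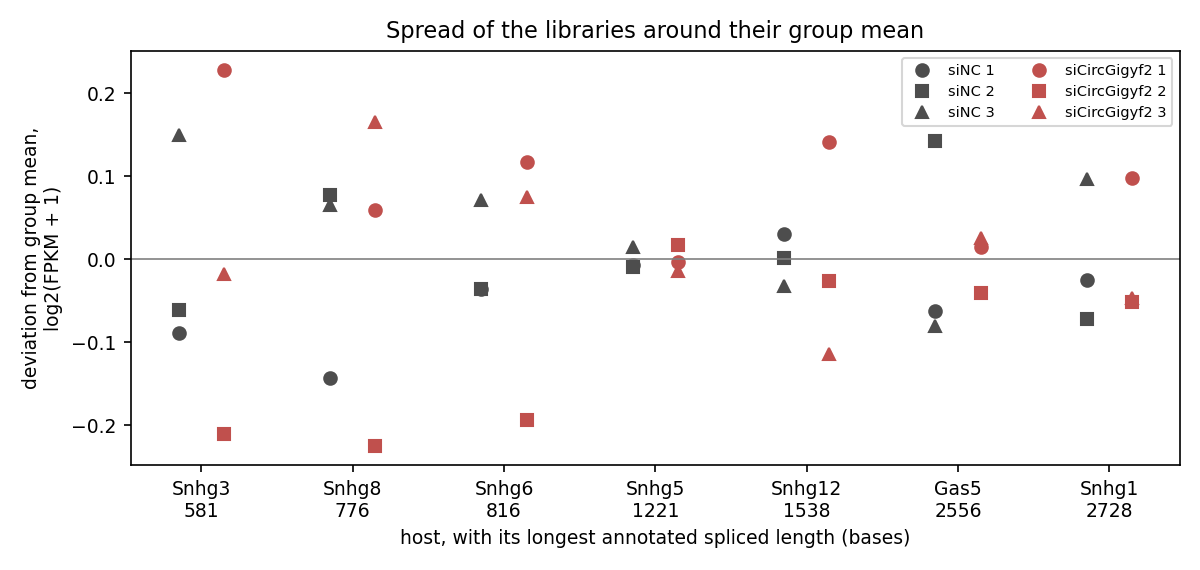
Deviation of each library from its group mean on the log2(FPKM + 1) scale (y axis) for the 7 hosts with values in all libraries, ordered by the longest annotated spliced length (x axis, bases). The red squares, siCircGigyf2 replicate 2, lie 0.19 to 0.23 below 0 for Snhg3, Snhg8 and Snhg6, whereas all points of Snhg5 lie close to 0.

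Snhg9 stood apart. It was listed at 24.9 FPKM in siCircGigyf2 replicate 1 and at exactly 0 in siCircGigyf2 replicates 2 and 3 and in all 3 siNC libraries. A fold against libraries listed at 0 cannot be given, and the fitted difference did not pass (limma adjusted p = 0.270). Its annotated spliced length, 183 bases, was the shortest of the 8 hosts. Exact zeros were rare among tested genes: 9 of 11420 were listed at 0 in at least 1 library, and these included Snhg9, Snora23, Snora78 and Snora81. Another of the 9 was Prnp, which encodes the prion protein, with 0 in all 3 siNC libraries and 1409 to 1420 FPKM in the siCircGigyf2 libraries. Among tested genes with annotated spliced lengths under 300 bases, 5 of 15 (33.3%) were listed at 0 in at least 1 library, against 0.0793% of all 11351 tested genes with a length.

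The snoRNA inside Snhg9 also had a value in a single library, but not in the same one. Snora78, an H/ACA RNA, was listed at 527 FPKM in siNC replicate 2 and at 0 in the other 5 libraries, including siCircGigyf2 replicate 1, where Snhg9 had its only value. Snhg9 and Snora78 were the only 2 of the tested genes listed at 0 in exactly 5 libraries. Snhg9 overlaps Rps2, a ribosomal protein gene on the other strand that itself hosts H/ACA RNAs. Rps2 was listed at 1934, 2015 and 1952 FPKM against 1835, 1759 and 1872 FPKM, with no gap in any library, and its difference of 0.11 did not pass (limma adjusted p = 0.0588). Malat1, known as an abundant nuclear RNA of nearly all cells, also had 0 in every column. Its level in these cells was not measured otherwise, and a listed 0 was not taken as evidence that an RNA is absent.

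The snoRNAs themselves were mostly without a value. Of 114 rows named as snoRNAs or small Cajal body RNAs, 107 were listed at 0 in all 6 libraries and 7 were not. Of the snoRNAs inside the 8 hosts, 9 had a row, and 8 of those were at 0 throughout. The change in a host therefore could not be set beside that of its guide RNA here. The 3 rows of highest mean were Scarna13 (1208, 1135 and 1326 FPKM against 1441, 1504 and 1332 FPKM), Scarna6 and Snord17 (223, 262 and 227 against 334, 351 and 255 FPKM). Scarna13 and Snord17 fell, by 0.22 and 0.39 (limma adjusted p = 0.0234 and 0.0226), although the groups overlapped for Snord17, and Scarna6 did not pass (adjusted p = 0.313). Scarna13 lies within Snhg10, a host outside the 8, whose values of 6.98, 3.46 and 6.50 FPKM against 4.25, 4.35 and 6.32 FPKM did not differ past their spread (0.13, limma adjusted p = 0.672).

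Other noncoding snoRNA hosts were set beside the 8, with no test of the difference between the lists. Of 18 listed symbols, 15 had a row and 11 were tested, of which 2 rose and 0 fell, a share of higher calls near the 19.5% of all genes, with a median difference of 0.13 against 0.00035 over all genes. 2410006H16Rik, which holds Snord49a, Snord49b and Snord65, was listed at 855, 754 and 822 FPKM against 704, 681 and 723 FPKM and rose by 0.20 (limma adjusted p = 0.0103). Rian, an imprinted noncoding RNA, was listed at 2.63, 2.86 and 2.35 FPKM against 1.86, 2.25 and 1.90 FPKM and rose by 0.27 (limma adjusted p = 0.036). That call was lost when siCircGigyf2 replicate 1 or 2 or siNC replicate 1 or 3 was left out and with all rows fitted unfiltered (adjusted p from 0.0688 to 0.11). 1500012F01Rik, an older symbol of Zfas1, was listed at 352, 311 and 367 FPKM against 314, 313 and 314 FPKM (0.13, limma adjusted p = 0.098). The other siCircGigyf2 libraries lay above every siNC library, but siCircGigyf2 replicate 2 lay below every siNC library. Without that library the difference was 0.20 and passed (adjusted p = 0.00231).

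The 8 remaining tested hosts of that list did not pass with all libraries. Their differences were 0.13 for Snhg7, 0.16 for Snhg14, 0.13 for Snhg10, 0.10 for Dancr, -0.02 for Snhg17, -0.03 for Snhg20, -0.04 for D17H6S56E-5 and -0.05 for Snhg4. Without siCircGigyf2 replicate 2, Snhg14 (0.25, limma adjusted p = 0.00867) and Snhg7 (0.18, adjusted p = 0.0475) passed. When single libraries were left out, the sign changed for Snhg10 (-0.03 without siCircGigyf2 replicate 1), Dancr (-0.09 without siNC replicate 3), Snhg4 (0.06 without siNC replicate 2) and Snhg20 (0.05 without siCircGigyf2 replicate 3). It also changed for Snhg17 (0.02 and 0.01 without siCircGigyf2 replicate 2 or 3) and D17H6S56E-5 (0.01 and 0.05 without siCircGigyf2 replicate 1 or siNC replicate 2), and none of these values passed. Snhg14, the long imprinted host of the Snord115 and Snord116 clusters, averaged 12.7 ± 1.44 against 11.3 ± 0.447 FPKM (SD, n = 3). D17H6S56E-5 was included by name, with no snoRNA match found.

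Of 37 protein-coding snoRNA hosts tested, 5 rose and 3 fell, beside 19.5% higher and 18.7% lower over all genes, with a median difference of 0.07, which changed sign to -0.02 after quantile normalization. Rpl3 averaged 1255 ± 31.6 against 1102 ± 29.0 FPKM and rose by 0.19 (SD, n = 3, limma adjusted p = 0.00414), a call lost after quantile normalization (0.138). Eif4a1, the RNA helicase of cap-dependent initiation, rose by 0.16, and Rps3 fell by 0.21. Dkc1, the pseudouridine synthase of H/ACA particles and a host itself, averaged 8.90 ± 0.361 against 12.8 ± 0.610 FPKM and fell by 0.48 (limma adjusted p = 0.000169).

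Among genes for core and assembly proteins of the snoRNA particles, more fell than rose. Of 19 tested, 8 fell and 2 rose, with a median difference of -0.10, beside 18.7% lower and 19.5% higher over all genes. This list shares Nop56, Nop58 and Dkc1 with that of the protein-coding hosts, so the falls of Nop58 and Dkc1 count in both. After Dkc1, the members with the smallest p were Znhit3, an assembly factor of box C/D particles, which fell by 0.30, the AAA+ ATPase gene Ruvbl2, which fell by 0.25, and Nhp2l1, the protein that binds the kink-turn of box C/D RNAs, which fell by 0.18 (limma adjusted p = 0.000941, 0.00249 and 0.0053). The members that rose, Nufip1 and Znhit6, both assembly factors, were named after their values were seen and rose by 0.24 and 0.27. Nhp2, Ruvbl1 and Nolc1, also named after their values were seen, were among the 8 that fell. Each of these calls was lost with some single library left out (limma adjusted p from 0.0521 to 0.102). Conversely, Nop56 and Gar1, which had no call, passed as falls without siCircGigyf2 replicate 2 and 3, respectively (limma adjusted p = 0.0259 and 0.0472).

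Some factors of nonsense-mediated decay were higher with the circGigyf2 siRNA, with 3 of 10 tested that rose, beside 19.5% of all genes. Smg1, the kinase that phosphorylates Upf1, averaged 33.9 ± 0.799 against 27.2 ± 0.256 FPKM and rose by 0.31 (SD, n = 3, limma adjusted p = 0.000161). Upf3b rose by 0.23 and the helicase gene Upf1 by 0.16 (limma adjusted p = 0.0052 and 0.0213). The call of Upf1 was lost without siCircGigyf2 replicate 2, siNC replicate 2 or siNC replicate 3 (adjusted p from 0.0649 to 0.0734). Of 6 coding transcripts known as substrates of this decay, Gadd45a rose by 0.34 and Atf4 by 0.08 and 0 fell (median 0.15), beside 19.5% higher and 18.7% lower over all genes. Atf4 did not pass when any 1 library was left out (adjusted p from 0.0538 to 0.0981) or after quantile normalization (0.379), among other settings.

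Genes isolated alongside Gas5 in growth arrest, and their relatives, gave 1 call among 5 tested, a share near the 19.5% of all genes that were higher. Gas6, a ligand of the TAM receptor kinases, averaged 2.34 ± 0.249 against 1.75 ± 0.0526 FPKM (SD, n = 3) and rose by 0.28 (limma adjusted p = 0.0237), which did not pass without siCircGigyf2 replicate 2 or any 1 siNC library (adjusted p from 0.0512 to 0.076). Of 6 other noncoding RNAs tested, Rpph1, the RNA of ribonuclease P, was the 1 that passed (0.15, limma adjusted p = 0.0438), again near the 19.5% over all genes, and it did not pass in 10 of 16 alternatives (adjusted p from 0.0636 to 0.224).

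The calls of Snhg1, Snhg5 and Snhg12 were kept in all 16 alternative settings run, and that of Snhg8 in 11 of 16. Snhg6 passed in 1 of 16, without siCircGigyf2 replicate 2, and Gas5, Snhg3 and Snhg9 in 0.

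**Figure D4:**
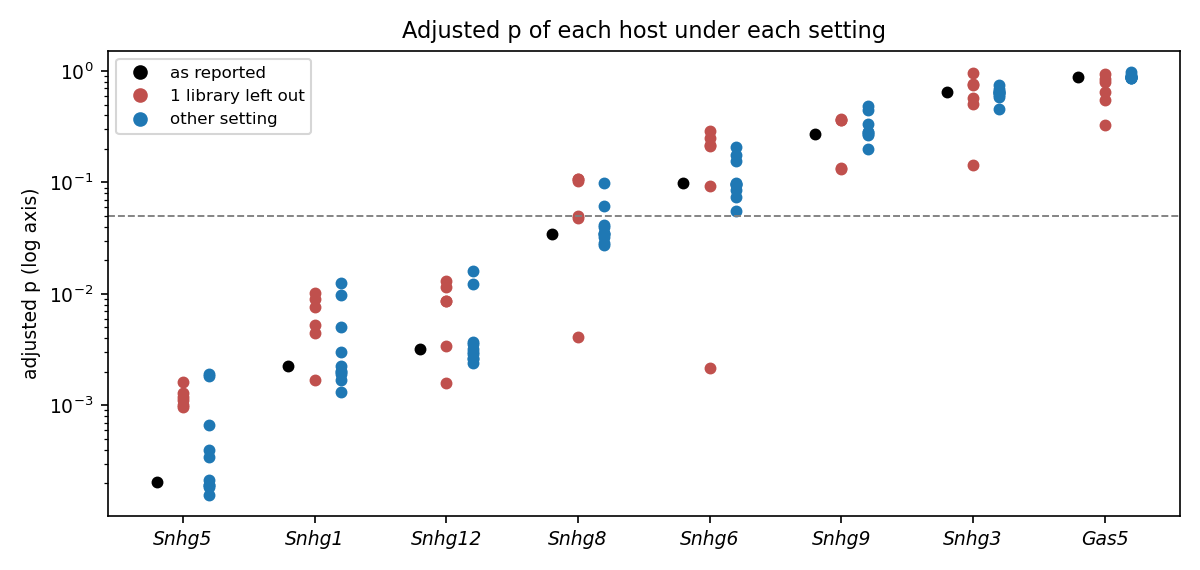
Adjusted p of each host (y axis, log scale) as reported (black), with 1 library left out (red) and under each other setting (blue); the dashed line is 0.05. Snhg5, Snhg1 and Snhg12 stay below the line throughout, Snhg8 lies on both sides of it, and Snhg6 has 1 red point below it, at 0.00216.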

How the data were processed

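The authors deposited 1 table of FPKM per gene symbol and library. Per the submitters' processing notes the build was mm9. The aligner, quantifier, annotation and strand handling are not given in the sources used here. FPKM are not counts, so no count model was used. Each column was matched to its sample by title.

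Genes with a mean of at least 1 FPKM were fitted on log2(FPKM + 1) with limma 3.58.1 (R 4.3.3; mean-variance trend, two-sided, Benjamini-Hochberg over 11420 genes, threshold 0.05). The fit was tested on simulated data with independent normal noise and few changed genes. That setting differs from these data, where many genes were called, so the run is no check of the calls given here. On this scale the changes of genes of low FPKM are understated. No library pair shared more than 0.0068% of its values.

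The 8 hosts and all lists were chosen with earlier results of these data known. Named genes are the 8 hosts, all other noncoding hosts tested, up to 4 members past the threshold with the smallest p per list, the 3 snoRNA rows of highest mean and the 3 genes most correlated with Snhg6. Genes next to a host, and others so marked, were added after values were seen.

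GENCODE M21 and RefSeq (both GRCm38, not mm9) were joined by symbol. They gave snoRNAs, neighbours, start windows and spliced lengths, the longest transcript per symbol, for 99.4% of tested genes. Alternatives were another pseudocount, filters, scalings, the replicate block, empirical Bayes options, leaving out genes listed at 0 or each library in turn, and a length correction (lowess span 0.3, chosen after seeing the data). Python 3.11.15, pandas 2.3.3 and numpy 2.4.6 were used. The account of the decay factors is not complete, since 1 result is not reported here.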

Additional observations from a re-analysis of the deposited data

How the results depend on the processing

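Over 16 alternatives the number of snoRNA hosts past the threshold was 3 to 5, all higher, with 4 as reported, and the number of all genes past it was 3521 to 4424, with 4367 as reported. With the replicate block 3973 genes passed and the 4 hosts did too, and Snhg7 also passed (limma adjusted p = 0.0402). No label says whether libraries of the same replicate number belong together. Deviations from the group means of same-numbered libraries correlated at 0.163 (replicate 1, the highest of all pairs between the groups), -0.021 and 0.0025. By contrast, siCircGigyf2 replicates 2 and 3 correlated best with another number. Whether same-numbered libraries share a culture or batch cannot be told from these values. Leaving out each library in turn gave 3 to 5 hosts and 3521 to 3933 genes, differences of -0.054 to 0.058 for Gas5 and differences of -0.18 to 0.039 for Snhg3. Gas5 changed sign without siCircGigyf2 replicate 2 (0.0068), without siNC replicate 2 (0.058) and with the length correction (0.0022), and Snhg3 without siCircGigyf2 replicate 2 (0.039) and without siNC replicate 3 (0.0087). None of these passed, and the cause was not tested. Snhg9 gave no value with a filter of 5 FPKM, without genes listed at 0 or without siCircGigyf2 replicate 1. Its fitted difference of 1.56 was 2.65 with a pseudocount of 0.1. FPKM without fragment counts give no counting interval, and 3 libraries a group limit what differences could be detected.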
